A study of Mus musculus with 2 samples.

Results

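The genes described here are the matrix metalloproteinases (MMPs), the ADAM and ADAMTS proteases and the tissue inhibitors of metalloproteinases (TIMPs) in the uterine epithelium of mice without Msx1 and Msx2. Members were chosen by gene name, with earlier results of these data known. They are all probe sets whose annotation gives a single gene symbol of the form Mmp, Timp, Adam or Adamts followed by its number. This gave 116 of the 45101 probe sets on each array, for 65 of 18193 genes: 18 MMP, 4 TIMP, 28 ADAM and 15 ADAMTS genes.

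Both groups were C57BL/6 females on day 4 of pregnancy, with day 1 set by the vaginal plug, and each group gave 1 Affymetrix array of uterine epithelial cells: Msx1Msx2 floxed controls and Msx1Msx2-null mice. In the null mice both floxed genes, which encode homeobox transcription factors, were ablated with PRcre, so deletion is limited to cells that express or have expressed the progesterone receptor; the labels do not say whether the control mice carried Cre. The design text gives 5 mice per genotype and does not state whether their RNA was pooled, whereas the extraction text speaks of stromal cells from 4 mice per genotype; the cell type field, epithelial, is followed here. With 1 array per genotype there is no replicate check and no p-value, and every difference below is between this pair of arrays.

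MMPs, their secreted relatives named ADAMTS and many, but not all, of the membrane-bound relatives named ADAM are zinc-dependent proteases made as inactive precursors. MMPs cut collagens, laminins and other matrix proteins. Active ADAMs release the outer parts of membrane proteins such as growth factor precursors, and ADAMTS proteases cut matrix proteoglycans or process matrix fibres. TIMPs bind the active site of MMPs and of some ADAM and ADAMTS enzymes, and in the uterus the balance of these proteins is known for its part in matrix remodelling around implantation.

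Of the 65 genes 4 passed 2-fold, and 37 were too dim on both arrays to compare. Signals are MAS5 units on a linear scale, and a floor of 21.1, the 50th percentile of all non-control signals, marks the level below which a value has only a bound. By its brightest probe set, 28 of the 65 genes (43.1%) reached the floor on at least 1 array, against 64.1% of all genes. Of these 28, 20 did so on both arrays, 6 on the null array alone and 2 on the control array alone. In the null, Mmp7, Adamts16 and Adam12 exceeded the control by 2-fold or more, Adam28 fell short of it by 2-fold or more, and the other 24 were not past 2-fold. Of these 24, 17 were above the floor on both arrays and so lay within 2-fold, whereas 7 (Mmp3, Mmp9, Mmp10, Mmp11, Mmp17, Adam19 and Adamts4) have only a bound and may differ by more. Among all 11662 measured genes 7.73% were at least 2-fold higher and 4.75% at least 2-fold lower, so 3 and 1 of 28 are close to the background. At 1.5-fold, 7 of the 28 were higher and 3 lower, against 17.5% and 12% of all measured genes. At 3-fold, 3 were higher and 0 lower, against 2.97% and 1.51%. The median log2 difference, null minus control, was 0.21 over the 28 genes and 0.08 over all measured genes.

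The precision of a single difference can be gauged only from probe sets of the same gene, whose log2 differences scattered with a standard deviation of 0.38 over 4645 genes (0.33 over 9 genes of these families). This gauge holds no spread between animals. Signals of different probe sets are not comparable with each other, so levels are not ranked between genes. On the same arrays the Msx1 signal was 3474 (control) and 42.3 (null) and that of Msx2 63.4 and 23.6, by their brightest probe sets. All 13 epithelial markers with a probe set were above the floor on both arrays, with a median of -0.10. Stromal markers were also present: 12 of 13 reached the floor on both arrays and Pdgfrb reached it on neither. Their summed signal was 10098 in the control and 12775 in the null, in which the brightest marker, Dcn, read 4213 and 3877.

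**Figure D1:**
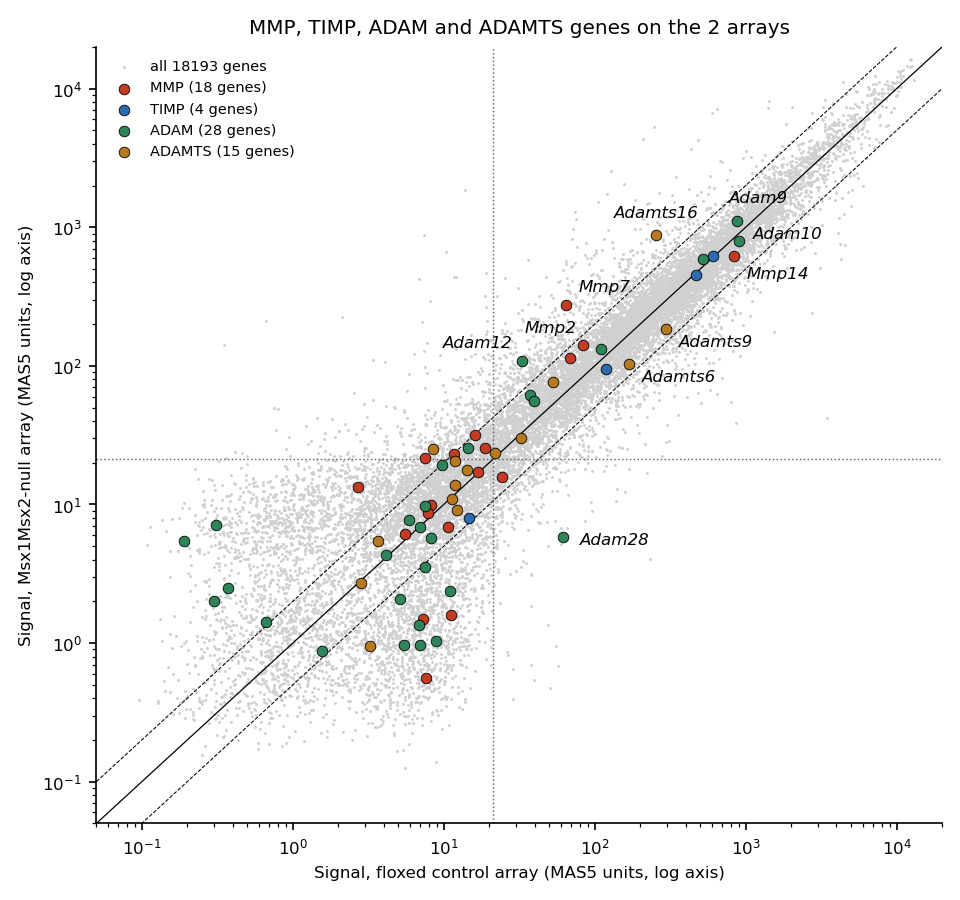
Signal of each gene on the control array (x axis) and the null array (y axis), both in MAS5 units on log axes, by its brightest probe set; grey points are all genes, coloured points the 65 genes by family, the solid line equality, dashed lines 2-fold and dotted lines the floor of 21.1. Mmp7, Adamts16 and Adam12 lie above the upper dashed line, Adam28 lies far below the lower one, and 37 of the 65 genes fall under the floor on both arrays.

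Mmp7 had the largest difference of all 28 genes. It encodes matrilysin, a small MMP made by epithelial cells themselves, which in the mouse intestine activates defensin precursors. Its single probe set gave 64.2 (control) and 277 (null), 4.31-fold higher (log2 difference 2.11). Of all measured genes, 1.41% differed as much or more in that direction. The null value was well above the floor and the control value moderately so; with no second probe set, nothing on the array checks it. Markers of the uterine glands, which are epithelial too, were mostly higher on the same array. Of 6 measured, 3 were at least 2-fold higher and 1 at least 2-fold lower, against 7.73% and 4.75% of all measured genes. Their median was 1.13 and their summed signal 571 (control) and 1477 (null), mostly that of Aldh1a1, which read 384 and 1106. Among these markers Cxcl15 was 4.61-fold, Aldh1a1 2.88-fold and Foxa2 2.40-fold higher, Sox9 was 2.24-fold lower and Prss28 was below the floor on both arrays. Their part in the Mmp7 value was not tested.

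Mmp7 stands at one end of a row of 10 MMP genes on mouse chromosome 9, in the gene order of RefSeq assembly GRCm38.p6, and was the only 1 of them above the floor on both arrays. The stromelysin gene Mmp3 read 24.2 (control) and 15.7 (null), and Mmp10, stromelysin 2, 7.54 and 21.7, so each crossed the floor on a single array and only barely. The collagenase genes Mmp1a, Mmp1b, Mmp8 and Mmp13, the macrophage elastase gene Mmp12 and the enamelysin gene Mmp20 were below the floor on both arrays. Mmp27 has no probe set here. Along the row, then, Mmp7 alone was clear of the floor.

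The starts of these genes share a layout. In the 250 bases upstream of the start site, taken from RefSeq promoters of GRCm38.p6 at the start farthest 5′, 7 of the 10 row genes hold both an AP-1 motif (TGANTCA, the element bound by Fos and Jun proteins) and, downstream of it, a TATA box (TATAAA), each searched on both strands. The same arrangement is found in 0.81% of 27025 genes in the promoter table and in 0 of 28 other member genes with a promoter there. The AP-1 motif alone occurs in 6.85% and the TATA box alone in 13% of all promoters. Of the 7 genes with both, Mmp7 was above the floor on both arrays, 2 were above it on a single array and 4 on none. The motif TAATTG, a core that homeodomain proteins including Msx can bind, occurs in 2 of the 10 row promoters, those of Mmp3 and Mmp12, against 7.33% of all promoters, and not in that of Mmp7. For the gene that differed most and 4 of its neighbours, the 100 bases before the start are given 5′ to 3′ on the gene's strand, with both motifs in capitals.
Mmp7 (chr9:7691990-7692089, + strand): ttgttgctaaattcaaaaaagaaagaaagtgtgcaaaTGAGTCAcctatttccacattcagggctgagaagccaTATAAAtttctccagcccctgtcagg
Mmp10 (chr9:7502242-7502341, + strand): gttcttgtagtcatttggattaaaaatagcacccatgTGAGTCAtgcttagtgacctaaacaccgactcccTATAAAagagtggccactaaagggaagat
Mmp3 (chr9:7445722-7445821, + strand): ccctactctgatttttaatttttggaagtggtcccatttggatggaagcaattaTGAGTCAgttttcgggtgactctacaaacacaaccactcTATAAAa
Mmp1a (chr9:7464041-7464140, + strand): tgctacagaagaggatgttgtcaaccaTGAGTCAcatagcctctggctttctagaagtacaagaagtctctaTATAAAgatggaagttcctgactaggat
Mmp13 (chr9:7272414-7272513, + strand): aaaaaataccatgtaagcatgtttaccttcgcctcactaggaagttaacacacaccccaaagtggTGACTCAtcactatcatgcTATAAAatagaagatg
In Mmp7 the AP-1 motif begins at position -63 and the TATA box at -26, where -1 is the last base before the start; in Mmp10 they begin at -63 and -29. Across the 7 genes the AP-1 motif begins between -95 and -35. Their nearest TATA box begins between -58 (Mmp20) and -7 (Mmp3), so its distance from the listed start varies. A match is a description of these letters and was not tested as a binding site.

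The row is also a neighbour of the progesterone receptor gene, Pgr, the locus into which Cre is inserted in the PRcre line. In the assembly, 7 protein-coding genes lie between Mmp7 and Pgr, and 4 of them were measured. Tmem123 was lower in the null (1794 and 1055, log2 -0.77; its other probe set -1.52), as was Birc2 (log2 -0.44), whereas Birc3 stood at 0.25 and Yap1 at 0.08 (its other probe set -0.61). By their brightest probe sets none of the 4 reached 2-fold, and none was higher by as much as Mmp7. Pgr itself gave 3 values that disagree: its brightest probe set read 2524 and 2757 (log2 0.13), another 127 and 191 (0.59), and the dimmest 52.7 and 293 (2.47), a larger difference than that of Mmp7. These neighbours were chosen for their position after the value of Mmp7 was seen. If only the null mice carried the Cre allele, a difference linked to that stretch of chromosome and the loss of Msx1 and Msx2 cannot be told apart for Mmp7.

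**Figure D2:**
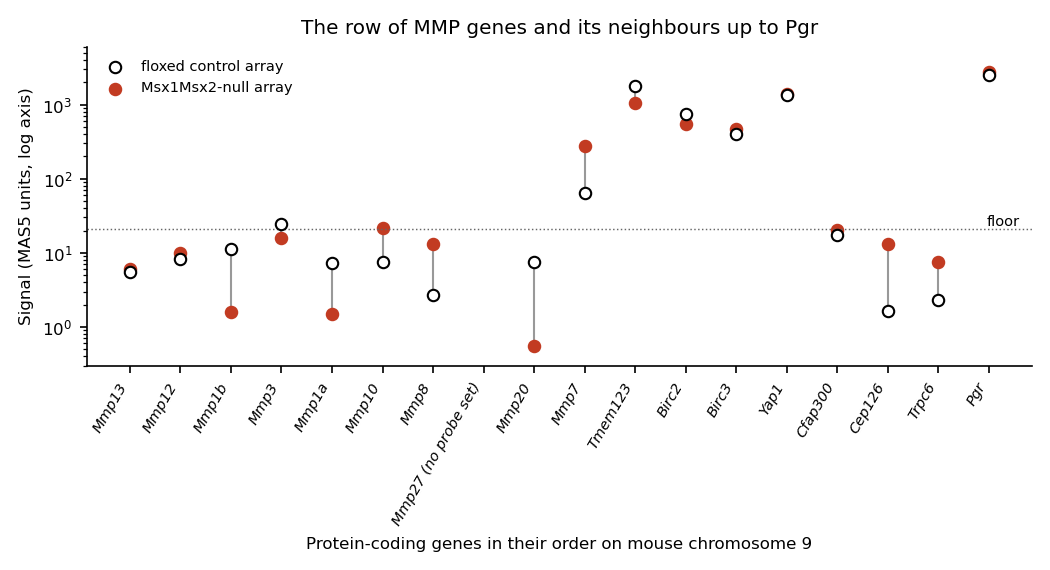
Signals (y axis, MAS5 units, log axis) on the control array (open circles) and the null array (filled circles) for protein-coding genes in their order on mouse chromosome 9 from Mmp13 to Pgr (x axis), by the brightest probe set; the dotted line is the floor. Mmp7, at 64.2 and 277, is the only MMP gene of the row above the floor on both arrays, and its neighbours Tmem123, Birc2, Birc3 and Yap1 lie within 2-fold.

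None of the gelatinases and remaining MMPs passed 2-fold, and Mmp9, Mmp11 and Mmp17 have only bounds. Mmp2, gelatinase A, an enzyme mostly of stromal cells, read 83.9 and 141 by its brighter probe set (log2 0.74) and 79.3 and 134 by the other (0.75). Mmp23, a membrane-anchored MMP without a hemopexin domain, read 69.0 and 114 (0.73), with its second probe set at 0.57. Both genes were higher by about the same amount at each of their probe sets, which is larger than the gauge of 0.38 but short of 2-fold. Mmp9, gelatinase B, known from neutrophils, macrophages and trophoblast, read 18.8 and 25.4, only just over the floor in the null. Mmp11, stromelysin 3, which is activated inside the cell by furin, read 16.03 and 31.8, at least 1.51-fold higher, and the GPI-anchored Mmp17 11.7 and 23.3.

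Mmp14, the membrane-type MMP that activates pro-MMP2 together with TIMP2, was bright but gave no single direction. Its brightest probe set read 843 (control) and 616 (null) (log2 -0.45), whereas the others read 305 and 423 (0.47) and 71.6 and 78.9 (0.14). The disagreement between these probe sets is as large as any of the differences.

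The inhibitors were level. Timp2 read 466 and 456 (log2 -0.03), with its other 3 measured probe sets between -0.17 and -0.03. Timp3, which is held in the matrix and also inhibits ADAM17, read 606 and 625 (0.04), with its others between -0.28 and 0.15. Timp1 read 119 and 95.01 (-0.32) at its only probe set, a difference smaller than the gauge. Timp4 was below the floor on both arrays. No TIMP gene reached 2-fold.

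By their brightest probe sets the ubiquitous membrane sheddases were level as well, though other probe sets of Adam10 and Adam15 were not. Adam10, which cuts Notch and E-cadherin, read 901 and 799 (log2 -0.17) by its brightest probe set and 250 and 252 (0.01) by the next, while another crossed the floor upwards (13.1 and 36.8, at least 0.80). Adam17, the TNF-alpha converting enzyme that also releases EGF family ligands, read 521 and 587 (0.17), with its others at 0.24 and -0.23. Adam9 read 877 and 1103 (0.33) at its only probe set. Adam15, whose product carries an integrin-binding disintegrin domain, read 111 and 132 (0.26), but its second measured probe set gave -0.64.

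Among the other ADAM genes, Adam12 and Adam28 passed 2-fold in opposite directions. Adam12, meltrin alpha, known from mesenchyme, fusing muscle cells and placenta, read 32.9 (control) and 109 (null), 3.32-fold higher (log2 1.73); its second probe set read 7.37 and 17.3, under the floor on both arrays. Its control value is close to the floor, and with the floor at the 67th percentile the difference was 0.59, and with the median over both probe sets, each first set to the floor, 0.87, both short of 2-fold. Adam28, known from lymphocytes and some epithelia, read 61.9 (control) and 5.85 (null), at least 2.93-fold lower. The second Adam28 probe set was under the floor on both arrays, and the first is of the type that can match alternative transcripts, so the call has no second probe set behind it. With the floor at the 67th percentile, with the median over probe sets at face value, or without probe sets of that type, Adam28 was not measured, and with each probe set first set to the floor its median difference was -0.78.

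Adam33, best known from airway smooth muscle and fibroblasts, read 37.2 and 61.2 (log2 0.72), Adam8, of leukocytes, 39.8 and 55.6 (0.48), and Adam19, meltrin beta, 14.4 and 25.5. None of these reached 2-fold. On the same array the smooth muscle markers were mostly higher, 5 of 7 measured at least 2-fold, against 7.73% of all measured genes. Their median was 1.12 and their summed signal 334 in the control and 1008 in the null, of which Acta2 gave 163 and 595. Des went the other way (-0.40). Markers of stroma (none of 12 at 2-fold, median 0.54) and macrophages (2 of 8, median 0.79) were mostly higher too. The macrophage sum, 4906 (control) and 5228 (null), was mostly Cd14, which read 4260 and 4086. All 4 mesothelium markers were lower, none by 2-fold (median -0.60, summed signal 1078 and 761). With the median over probe sets, each first set to the floor, the list medians were 0.90 for smooth muscle, 0.29 for stroma and 0.25 for macrophages. Among the 7 smooth muscle markers Myh11, Cnn1 and Actg2 were below the floor in the control. The part of other cell types in the higher values of Adam12, Adam33, Mmp2, Mmp11 and Mmp23 was not tested, and more cells of a type and more RNA per cell cannot be told apart in such a bulk sample.

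**Figure D3:**
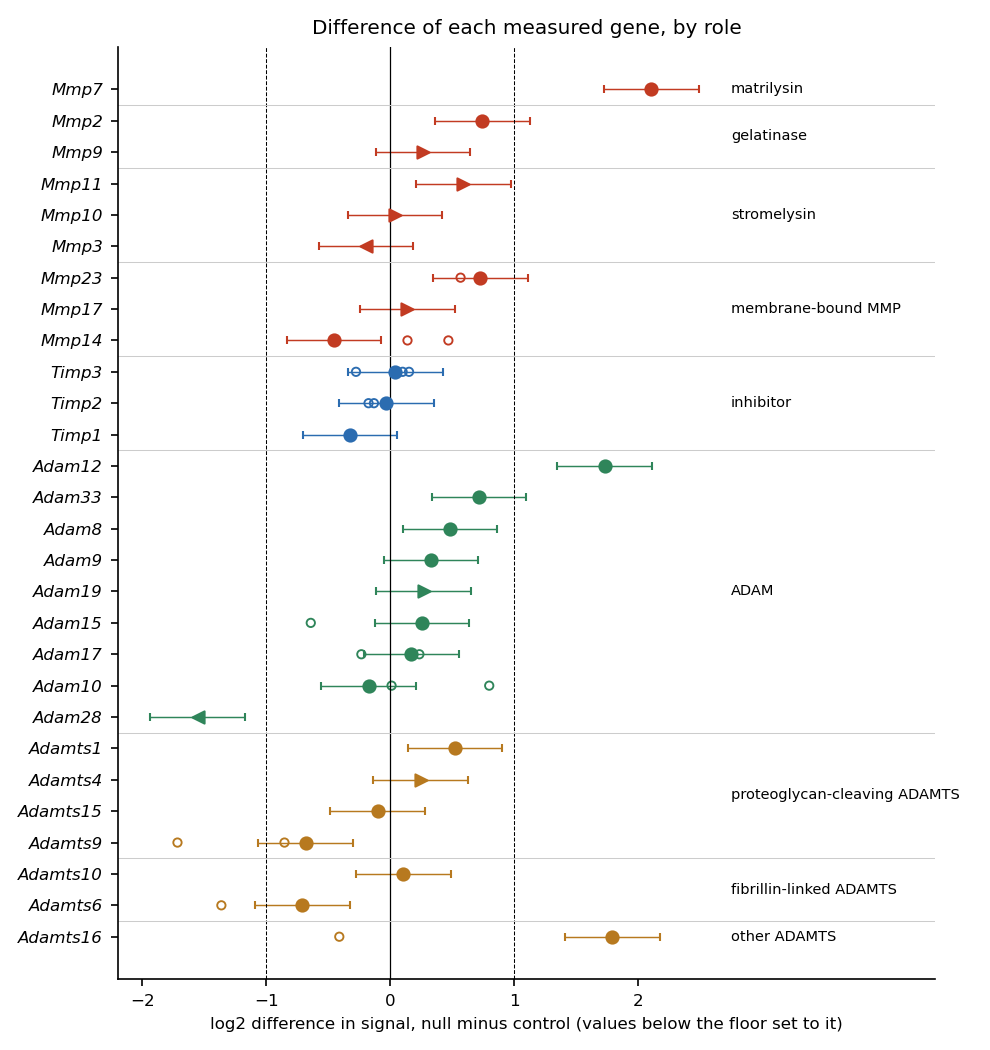
Log2 difference in signal, null minus control (x axis), for the 28 measured genes grouped by role; filled marks are the brightest probe set (circles where both arrays were above the floor, triangles where 1 was and the value is a bound), open circles the other measured probe sets, and bars 1 standard deviation, 0.38, of differences among probe sets of the same gene. Mmp7, Adamts16, Adam12 and Adam28 lie beyond the dashed 2-fold lines, the TIMP genes lie near 0, and Adamts9 and Adamts6 are lower at each of their measured probe sets.

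Among the ADAMTS genes 1 passed 2-fold. Adamts16, known from kidney and gonad development, read 254 (control) and 881 (null), 3.47-fold higher (log2 1.79), and 2.20% of all measured genes differed as much or more in that direction. Its second probe set went the other way, from 28.1 (control) to 2.49 (null), which the floor limits to -0.41. With the median over both probe sets the difference was -0.85 if the sub-floor 2.49 is taken at face value, and 0.69 if it is first set to the floor. The call of Adamts16, and at face value its direction, therefore rests on the brighter probe set.

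Adamts9 and Adamts6 were lower in the null at every probe set that could be measured. Adamts9, a protease of versican and other proteoglycans, read 297 and 185 by its brightest probe set (log2 -0.68), 191 and 58.1 by the next (-1.72) and 38.1 and 17.3 by the dimmest (at most -0.85). Adamts6, which acts with Adamts10 on fibrillin microfibrils, read 170 and 104 (-0.71) and, at its second probe set, 54.3 and 10.1 (at most -1.36). By the brightest probe set neither reached 2-fold, and with the median over probe sets both did, Adamts9 at -1.72 and Adamts6 at -1.04 with signals first set to the floor (-1.57 with sub-floor signals at face value). For both genes the sign held at each probe set while the size did not.

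None of the remaining ADAMTS genes passed 2-fold. Adamts1, a versican-cleaving protease that progesterone induces in the ovulating follicle, read 53.2 and 76.6 (log2 0.52). Adamts15 read 32.3 and 30.1 (-0.10), Adamts10 21.7 and 23.4 (0.11) and the aggrecanase Adamts4 8.47 and 25.1 (at least 0.25, and 1.54 with the floor at the 33rd percentile). Of the 4 measured genes of the proteoglycan-cleaving group none reached 2-fold, and their median was 0.07.

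The genes under the floor on both arrays were 19 of 28 ADAM, 9 of 18 MMP, 8 of 15 ADAMTS and 1 of 4 TIMP genes. Among the ADAM genes they include the fertilin beta gene Adam2 and Adam3, Adam5, Adam18 and Adam32, known from testis and sperm, and all 8 male germ cell markers were likewise below the floor on both arrays. The neural genes Adam11, Adam22 and Adam23 and the aggrecanase gene Adamts5 were in this class too. No other probe set of these 37 genes reached the floor on either array, so nothing can be said of a difference between the genotypes.

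Detected and undetected members differed in the median number of CpG dinucleotides in their promoters, with overlapping ranges. Of the 65 genes 37 had a promoter in the RefSeq table. The 12 such genes above the floor on both arrays had a median of 16.5 CpG dinucleotides in the 250 bases upstream (0 to 29). The 21 below it on both had a median of 1 (0 to 35), with the highest count in Adamts3. The 10 row genes on chromosome 9 had between 0 and 4. For all array genes in the table above the floor on both arrays or on neither, the medians were 16 and 5. These are descriptions with no test. Mmp7, with 0, had the fewest among the 12. The bright genes Adam10, Adam17 and Timp2, level by their brightest probe sets, are printed as CpG-rich examples beside the row above, with CpG dinucleotides in capitals. Adam8 and Timp1, also above the floor on both arrays, have only 6 each in 250 bases.
Adam10 (chr9:70678882-70678981, + strand): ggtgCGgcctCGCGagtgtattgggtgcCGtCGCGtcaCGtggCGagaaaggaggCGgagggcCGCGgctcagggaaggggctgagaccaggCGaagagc
Adam17 (chr12:21373633-21373732, - strand): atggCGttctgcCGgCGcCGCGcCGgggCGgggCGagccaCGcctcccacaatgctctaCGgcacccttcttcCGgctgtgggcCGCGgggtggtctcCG
Timp2 (chr11:118355412-118355511, - strand): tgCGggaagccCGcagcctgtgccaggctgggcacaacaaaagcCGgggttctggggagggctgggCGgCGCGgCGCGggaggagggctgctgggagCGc
In the 100 bases printed, Adam10 holds 12 CpG dinucleotides, Adam17 14 and Timp2 9, against 0 in Mmp7. Adamts16, Adam12 and Adam28 had no promoter in the RefSeq table, so their motifs and CpG counts could not be compared with those of Mmp7.

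Genes that switch these proteases on or hold them back differed little as a list. Of 25 measured genes of activation and control, 2 (8%, close to the 7.73% of all measured genes) passed 2-fold upwards and none downwards, and the median was 0.11. The higher ones were the protease inhibitor gene A2m (11.5 and 81.1, at least 3.84-fold) and Cst3 (577 and 1381, 2.39-fold). Cst3 encodes cystatin C, an inhibitor of cysteine proteases and not of metalloproteinases. A2m was chosen after its value was seen. Tspan33, a tetraspanin that guides ADAM10, stood at 0.99 from 41.4 and 82.1. Pcsk5, a proprotein convertase, stood at 0.57 and Rhbdf2, which escorts ADAM17 to the surface, at -0.56. The convertase gene Furin stood at -0.28 and the MMP inducer Bsg at 0.50, each picked with its value in view.

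Known targets of shedding and of matrix cleavage went both ways. Of 23 measured genes for shed membrane proteins 4 were at least 2-fold higher and 2 at least 2-fold lower, that is 17.4% and 8.70% against 7.73% and 4.75% of all measured genes, and the median was 0.20. Hbegf, an EGF family ligand, read 218 and 825 (log2 1.92, its other probe set 1.84). Sdc1, syndecan 1, read 75.9 and 182 (1.26, its other measured probe sets 1.26 and 0.91). The Notch ligand gene Jag1 read 516 and 193 (-1.42), but its other measured probe set gave only -0.53. The TNF receptor gene Tnfrsf1b read 112 and 43.98 (-1.35), with its other probe set below the floor on both arrays. Of 22 measured matrix substrate genes 3 (13.6%, against 7.73% of all measured genes) passed 2-fold upwards and none downwards (against 4.75%), and the median was 0.25. The basement membrane collagens Col4a1 (146 and 549, log2 1.92, its other probe set 1.08) and Col4a2 (83.5 and 240, 1.52) were among the 3. By their brightest probe sets Fn1, fibronectin (252 and 501, 0.99), and the laminin gene Lamc1 (357 and 185, -0.95) fell just short of 2-fold in opposite directions. The other Lamc1 probe set gave only -0.39. Ltbp1, a latent TGF-beta binding protein chosen after its value was seen, read 18.8 and 320, at least 15.1-fold higher. Its other probe sets were below the floor on both arrays.

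Relatives that the naming rule leaves out included a bright gene with a large difference. Mme, neprilysin, a membrane metallopeptidase that degrades small peptides, read 4991 (control) and 1425 (null), which is 3.50-fold lower (log2 -1.81), and 1546 and 377 (-2.04) by its second probe set. Ece1, the endothelin-converting enzyme, stood at -0.58, with its other probe sets at -1.24 and at most -0.67. Bmp1, a procollagen C-proteinase, stood at 0.85. Of 18 such genes with a probe set 6 were measured, none was at least 2-fold higher, and Mme was the only 1 at least 2-fold lower.

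**Figure D4:**
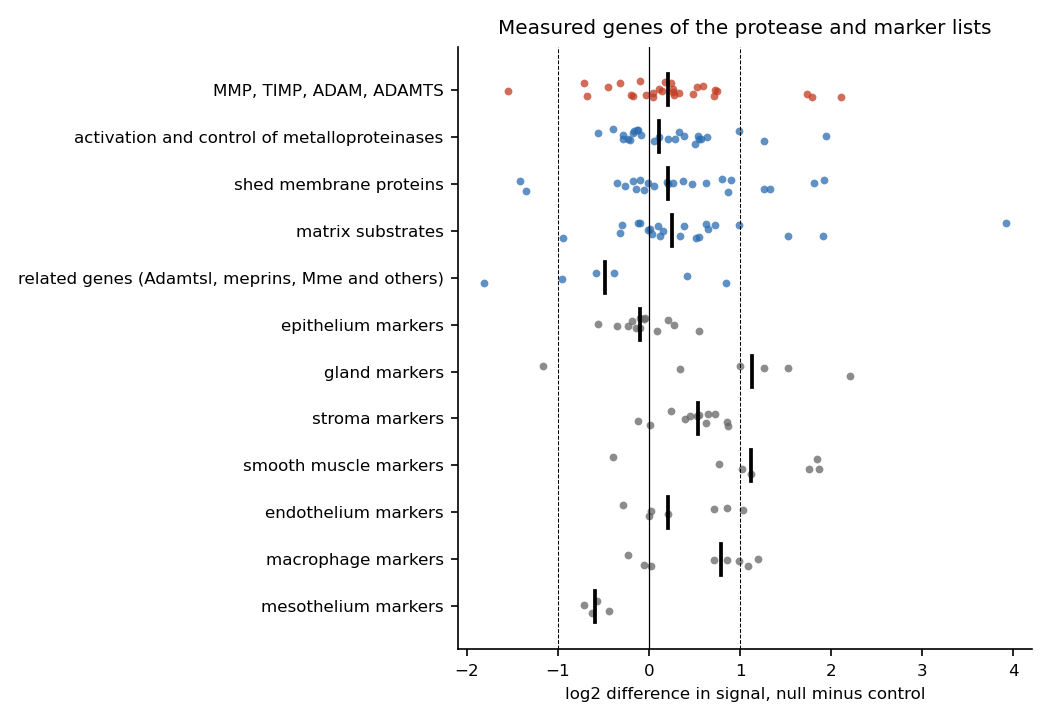
Log2 difference in signal, null minus control (x axis), of each measured gene in the MMP, TIMP, ADAM and ADAMTS families (red), in 4 lists of related genes (blue) and in lists of cell type markers (grey); each point is 1 gene, the black bar the list's median and the dashed lines 2-fold, with vertical scatter for display alone. The families have a median of 0.21, beside -0.10 for epithelial, 0.54 for stromal and 1.12 for smooth muscle markers.

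The direction of the small differences depended on how the arrays were scaled. With the hybridization spike-ins as the scale, the median of all genes moved from 0.08 to -0.20. That of the members moved from 0.21 over 28 genes to 0.00 over 26, with Mmp10 and Mmp17 no longer measured. In that setting Adam15, Adam17, Adamts10 and Timp3 changed sign, and 35.4% of all genes past 2-fold were higher, in place of 62.0%. The calls of Mmp7 (1.82), Adamts16, Adam12 and Adam28 were made in that scaling too, and Adamts9 then stood at -0.97.

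**Figure D5:**
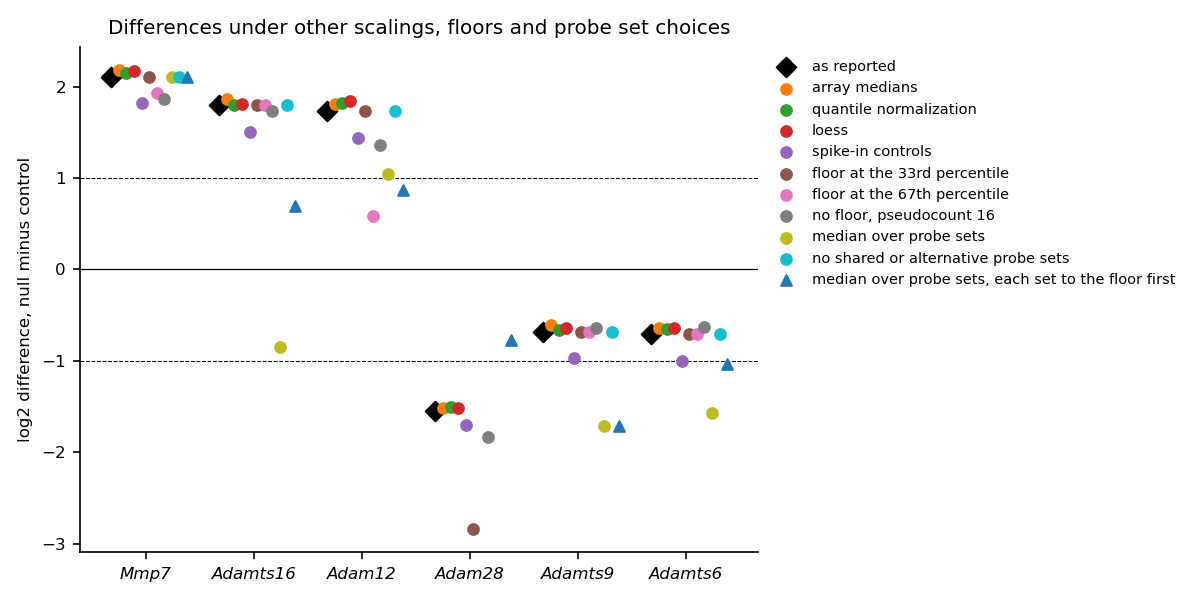
Log2 difference, null minus control (y axis), of 6 genes under the reported setting (black diamonds) and under other scalings, floors and probe set choices (coloured circles, and triangles for the median over probe sets with each first set to the floor); dashed lines mark 2-fold, and a circle is missing where the gene was not measured in that setting. Mmp7 stays between 1.82 and 2.18, Adamts16 falls to -0.85 with the median over its probe sets when a sub-floor signal is taken at face value and to 0.69 when it is set to the floor first, and Adam28 has no value in 3 of the alternatives.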

How the data were processed

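Gene expression was measured on 2 Affymetrix 3' arrays, 1 per genotype. Per the labels' protocols, epithelium was pressed out of uterine pieces after 90 min in 1% trypsin, and 100 ng of total RNA was amplified and labelled with biotin. The submitters' processing notes name MAS5 and Affymetrix Expression Console (version 1) for the deposited intensities, which are linear; both arrays had a 2% trimmed mean of 150.001, so differences in total RNA per cell are hidden. The genome build and detection calls were not given in the sources used here.

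Gene names came from the platform annotation (34958 probe sets name a single gene). Values below the floor, the 50th percentile, were set to it, and log2 was taken. A gene took its brightest probe set; fold changes against a value under the floor are bounds. Calculations used Python 3.11.15 with pandas 2.3.3 and were tested on simulated data. Other scalings (array medians, quantile, loess with a span of 0.3, spike-ins), floors (33rd and 67th percentile, or none with a pseudocount of 16), probe set choices and thresholds were tried; a median over probe sets with each first set to the floor was added after seeing the data. Every measured member is named; of each pathway list, up to 4 genes with the largest difference on both arrays. The members, lists and settings were chosen with earlier results of these data known.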

Additional observations from a re-analysis of the deposited data

How the results depend on the processing

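The number of genes at least 2-fold higher stayed at 2 or 3 under the other scalings, the 67th percentile floor, no floor, the planned probe set choices, the 3-fold threshold and genes measured on both arrays only. It was 5 with the 33rd percentile floor, where Adamts4 and Mmp10 joined, and 7 at 1.5-fold. With the median over probe sets, each first set to the floor, a choice made after seeing the data, it was 1, Mmp7, with Adamts16 at 0.69 and Adam12 at 0.87. The number at least 2-fold lower was 1 and became 0 with the 67th percentile floor, without shared or alternative-transcript probe sets, at 3-fold and with genes measured on both arrays only. It was 2 with either median over probe sets, where Adamts6 and Adamts9 were lower and Adam28 was not measured or stood at -0.78, and 3 at 1.5-fold. The median of the members ranged from 0.00 to 0.27, and the number of members measured from 16 to 65. Of 257 values of single genes under the alternatives, 232 moved by less than 0.38, 24 by more, and 1, Adamts16, changed sign from a called value, at -0.85 with the median over probe sets; this takes a signal under the floor at face value and does not occur when it is set to the floor first. Members not measured in a setting, such as Adam28 with the 67th percentile floor, gave no value there and were not counted. Of 137 list medians 13 moved by more than 0.38. No paired analysis was possible because each genotype has 1 array. The number of arrays limits the precision, and signals near the floor, as for Mmp3, Mmp9, Mmp10, Mmp17 and Adamts10, carry little information.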

Other observations

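Apart from the probe sets described, 5 probe sets name a member together with another gene and were left unnamed. The only 1 of them above the floor, annotated to Adam1a and Mapkapk5 together, read 28.2 (control) and 28.5 (null).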
